A study of Mus musculus with 12 samples.

Results

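The mitochondrial ribosomal protein genes were taken as every gene symbol that begins with Mrpl or Mrps and a number, leaving out pseudogene symbols. The tables held 77 such genes among 21851, of which 48 carried a large-subunit symbol (Mrpl) and 29 a small-subunit symbol (Mrps), and no pseudogene symbol had to be dropped. All were measured by RNA sequencing of the cells washed from the peritoneal cavity of C57BL/6J mice. The 12 libraries formed 4 groups of 3: lactoferrin knockout mice given LPS into the peritoneum, lactoferrin knockout mice given PBS, wild-type mice given LPS and wild-type mice given PBS. LPS is the lipopolysaccharide of the bacterial outer membrane, and lactoferrin, encoded by Ltf, is an iron-binding protein of neutrophil granules. The dose, the time before lavage, the age of the mice and the structure of the knockout allele are stated nowhere in the labels. Nor do these say whether each library came from a separate mouse, so the p-values measure the spread between these libraries.

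Mitochondria hold a ribosome of their own, which makes a small set of membrane proteins of the respiratory chain from messages transcribed inside the organelle. Its RNA is encoded by the mitochondrial genome, but every one of its proteins is encoded in the nucleus, made in the cytosol and imported. Many of these proteins have bacterial homologues, while others were added during the evolution of mitochondria, and the supply of both has to be matched with mitochondrial RNA, assembly factors and translation factors. In macrophages, LPS is known to alter mitochondrial metabolism, which makes the supply of mitochondrial ribosomes of interest in peritoneal cells.

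The values are FPKM, fragment numbers scaled by transcript length and library total, which allow levels to be compared between genes. Library totals lay between 343874 and 388129 FPKM, and the number of reads behind them is not given, so no counting interval could be computed. Ltf was at 0.117, 0.0832 and 0.0699 FPKM in the knockout LPS libraries and at 0.183, 0.258 and 0.212 FPKM in the knockout PBS libraries. In wild type it was at 0.176, 1.33 and 0.275 FPKM with LPS and at 1.89, 1.23 and 1.16 FPKM with PBS, so the genotypes were well apart under PBS, while under LPS 2 of the wild-type libraries were about as low as the knockout PBS libraries. The 10 markers of large peritoneal macrophages summed to 7501 to 9647 FPKM in knockout LPS, 12336 to 14300 FPKM in knockout PBS, 5912 to 8841 FPKM in wild-type LPS and 8767 to 21760 FPKM in wild-type PBS libraries. The 10 neutrophil markers summed to 725 to 2714, 1257 to 3119, 156 to 284 and 2021 to 3368 FPKM in the same groups, the 6 monocyte markers to 775 to 1300, 2286 to 2830, 842 to 1259 and 1841 to 2643 FPKM, and the 8 B cell markers to 151 to 259, 665 to 915, 245 to 347 and 540 to 1137 FPKM. The 8 T cell markers summed to 7.47 to 15.7, 16.2 to 22.3, 13 to 15.3 and 33.3 to 46.4 FPKM in the same groups. The 7 mast cell markers summed to 519 to 593, 558 to 903, 726 to 742 and 293 to 763 FPKM. The 7 natural killer cell and 5 mesothelial markers stayed at or under 33.4 and 3.87 FPKM in every library. The 6 erythroid markers reached 1886 FPKM in knockout LPS replicate 1 and 2225 FPKM in wild-type LPS replicate 2, against 4.46 to 330 FPKM elsewhere, with 1 of the 6 at 0 in the wild-type PBS group. Among the other markers none was at 0 throughout a group. Wild-type PBS replicate 3 correlated less with its group (Spearman's rho 0.949 and 0.934) than the libraries of the other groups among themselves (0.973 or more). The part of the cell mix in the results below was not tested, and in RNA from a mixture more cells of a type and more mRNA per cell cannot be told apart.

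All 77 genes passed the filter on low values (mean over all libraries of 1 FPKM or more), which kept 45% of all genes. Their mean levels ran from 2.37 FPKM for Mrps25 to 215 FPKM for Mrpl52, with a median of 17.1 FPKM; 28 were above 20 FPKM and 6 below 5 FPKM. The 5 highest were Mrpl52, Mrpl33, Mrpl12, Mrpl54 and Mrpl36, all of the large subunit. Over the 77 genes Spearman's rho between mean level and merged exon length in the annotation was -0.19, a description over genes that share the libraries.

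Mrpl52, a large-subunit protein without a bacterial homologue, had 246, 272 and 236 FPKM in knockout LPS and 179, 200 and 186 FPKM in knockout PBS libraries. In wild type it had 242, 292 and 223 FPKM with LPS and 196, 168 and 142 FPKM with PBS. It was thus the most abundant of these mRNAs in every group, and all 6 LPS libraries lay above all 6 PBS libraries.

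Summed over the 77 genes, the level was 1742, 1871 and 1535 FPKM in knockout LPS libraries and 1399, 1436 and 1363 FPKM in knockout PBS libraries. In wild type the sum was 1565, 1935 and 1685 FPKM with LPS and 1442, 1309 and 1328 FPKM with PBS. The group means were 1716 ± 169 FPKM in knockout LPS, 1399 ± 36.6 FPKM in knockout PBS, 1728 ± 189 FPKM in wild-type LPS and 1360 ± 72.4 FPKM in wild-type PBS (SD, n = 3 each). Every LPS library had a higher sum than every PBS library in both genotypes, while the 2 genotypes overlapped under either treatment. The sum without the erythroid-rich libraries stayed above that of every PBS library, since the other LPS libraries had 1535 FPKM or more. The genes together made up between 0.364% and 0.506% of a library's total FPKM. By that share the treatments did not separate across the genotypes. Knockout LPS replicate 3 had 0.4079%, below wild-type PBS replicate 1 at 0.4112%. Within each genotype every LPS library stayed above every PBS library, though in the knockout only by 0.4079% against 0.4075% at the closest.

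**Figure D1:**
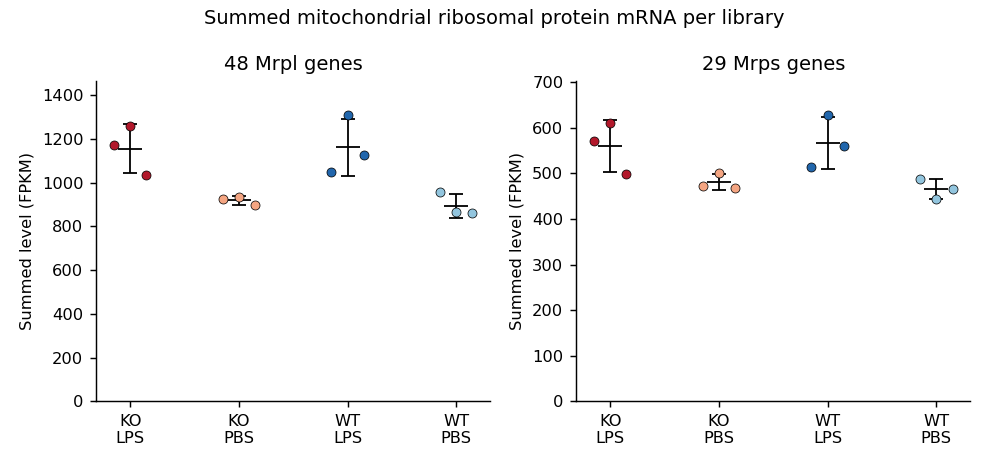
Summed FPKM of the 48 Mrpl genes (left) and the 29 Mrps genes (right) in each of the 12 libraries, by genotype and treatment. Points are libraries, and the horizontal mark with its bars is the group mean ± SD (n = 3). For the Mrpl genes all 6 LPS libraries lie between 1036 and 1308 FPKM and all 6 PBS libraries between 862 and 955 FPKM, while for the Mrps genes the lowest knockout LPS library, at 499 FPKM, falls within the range of the PBS libraries.

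With LPS many of these genes rose in each genotype and few fell. In the knockout 37 of 77 (48.1%) were higher with LPS than with PBS and 3 (3.9%) were lower, at an adjusted p under 0.05 from limma on log2(FPKM + 1). Of all 9841 genes tested, 19.9% were higher and 33.3% lower in that comparison. In wild type 43 of 77 (55.8%) were higher and 5 (6.49%) lower, where 24.8% of all genes tested were higher and 37.4% lower. The median difference of the 77 genes was 0.36 on the log2(FPKM + 1) scale in the knockout and 0.34 in wild type, beside medians of -0.12 and -0.11 over all genes tested. Over the alternatives in which the gene was tested, 24 of the 37 higher and 2 of the 3 lower calls held throughout in the knockout. In wild type 28 of the 43 higher and 4 of the 5 lower calls did. No called difference changed sign. Changes were moderate: 1 gene in the knockout and 3 in wild type rose by more than 1 on that scale, and none fell by as much.

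The counts moved with the scaling of the libraries. With median-of-ratios scaling the median of all genes became 0.04 in the knockout and 0.05 in wild type, and the split of all genes between higher and lower became 2934 to 2397 in the knockout, against 1958 to 3277 as deposited, and 3327 to 2851 in wild type, against 2443 to 3680 as deposited. The mitochondrial ribosomal protein genes then had 53 higher and 2 lower in the knockout and 53 higher and 4 lower in wild type. Relative to the median of all genes, their median difference was 0.49 in the knockout and 0.47 in wild type with that scaling, and 0.49 and 0.46 as deposited. Without the 2 libraries rich in erythroid mRNA, 29 genes were higher in the knockout and 28 in wild type, where fewer libraries enter the test, and the median differences were 0.34 and 0.31. Leaving out wild-type LPS replicate 2 alone, which enters the knockout comparison through the shared spread, raised the knockout's lower calls to 5. Without wild-type PBS replicate 3, the library that stood apart, 38 genes were higher and 3 lower in the knockout and 38 higher and 5 lower in wild type.

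Separation of the libraries gave a like picture. In the knockout all 3 LPS libraries were above all 3 PBS libraries for 39 of the 77 genes and below them for 5, where 24.6% and 41.3% of all genes tested separated that way. In wild type the counts were 45 above and 5 below, beside 27.2% and 38.9% of all genes. For 32 of the 77 genes (41.6%) all 6 LPS libraries of both genotypes were above all 6 PBS libraries, as for 18% of all genes tested. For 4 genes (5.19%), Mrpl33, Mrpl34, Mrps16 and Mrps25, all 6 were below, as for 30.4% of all genes. Of those 32, 30 were also among the 32 genes called higher in both genotypes.

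**Figure D2:**
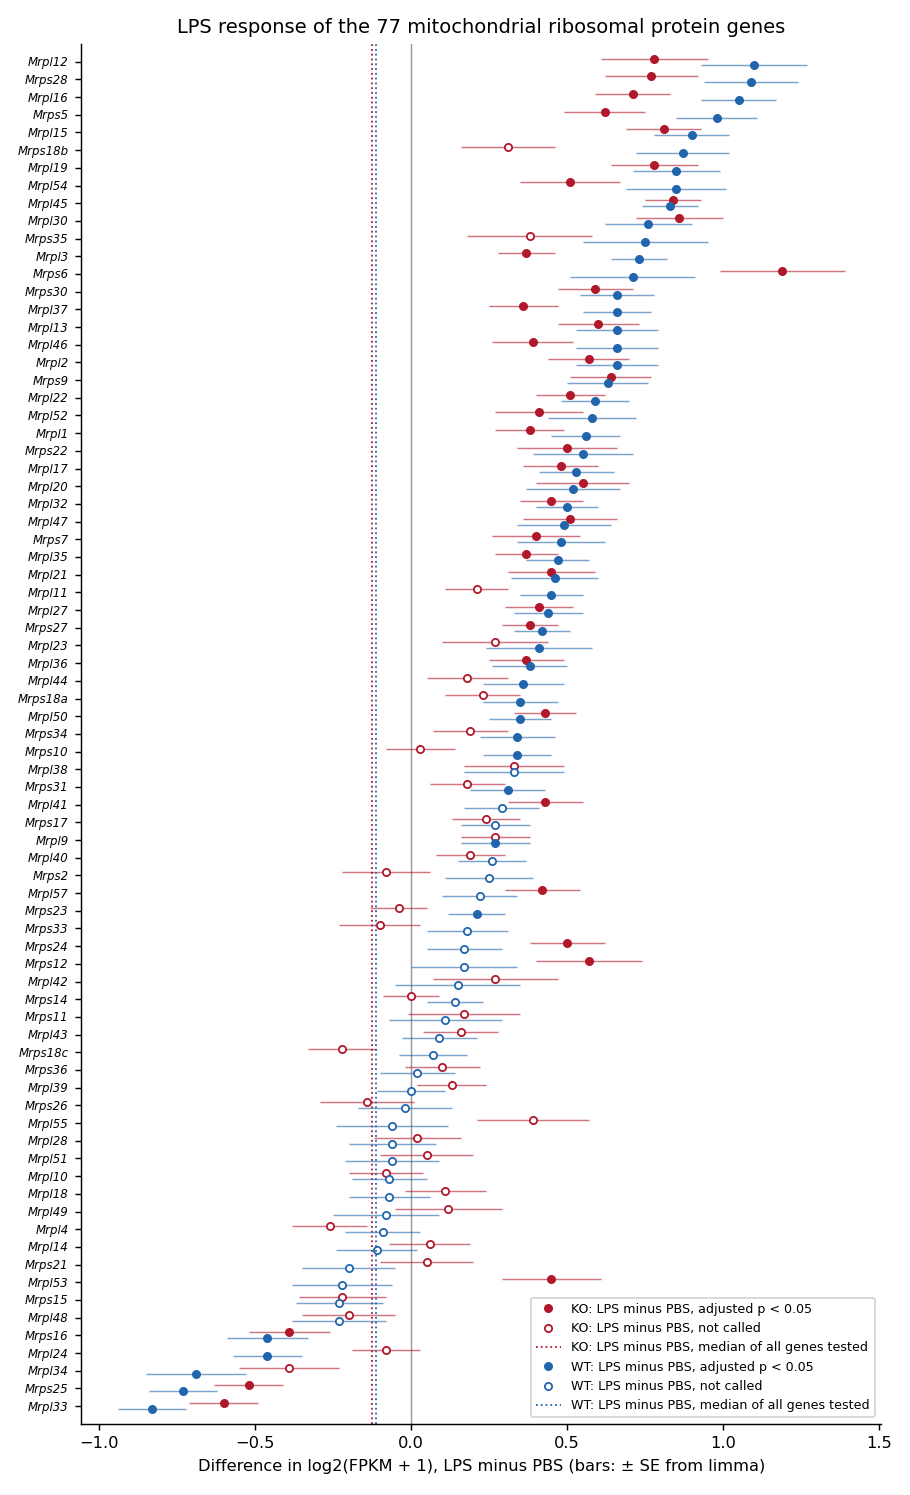
Difference between LPS and PBS on the log2(FPKM + 1) scale for each of the 77 genes, in the knockout (red) and in wild type (blue), ranked by the wild-type value. Bars are the SE from limma, filled points passed an adjusted p of 0.05, and dotted lines mark the medians of all genes tested. Most points lie to the right of both dotted lines, and Mrpl34, Mrps25 and Mrpl33 stand at the low end in wild type.

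The largest rises in wild type were those of Mrpl12, Mrps28, Mrpl16 and Mrps5. Mrpl12 (chromosome 11, 120484613 to 120489065, plus strand, GRCm38) encodes the stalk protein of the large subunit, to which translation factors bind. It had 71.2, 79.0 and 49.6 FPKM in knockout LPS against 38.6, 37.2 and 36.9 FPKM in knockout PBS libraries. In wild type it had 60.1, 74.8 and 73.3 FPKM with LPS against 37.4, 29.9 and 28.6 FPKM with PBS. Every LPS library was above every PBS library, and the difference was 0.78 ± 0.17 in the knockout (SE, adjusted p = 0.00241) and 1.10 ± 0.17 in wild type (adjusted p = 0.000198).

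Mrps28 (chromosome 3, 8802146 to 8923918, minus strand), a small-subunit protein, had 34.1, 38.2 and 27.3 FPKM in knockout LPS against 17.5, 21.9 and 17.4 FPKM in knockout PBS libraries. In wild type it had 32.2, 43.7 and 40.3 FPKM with LPS against 19.4, 17.6 and 15.9 FPKM with PBS. The treatments did not overlap in either genotype, and the difference was 0.77 ± 0.15 in the knockout (adjusted p = 0.00151) and 1.09 ± 0.15 in wild type (adjusted p = 0.000115). Mrpl16 (chromosome 19, 11770391 to 11774960, plus strand), a large-subunit protein with a bacterial homologue near the tRNA-binding sites, had 32.7, 34.2 and 32.6 FPKM in knockout LPS against 18.1, 20.4 and 21.6 FPKM in knockout PBS libraries. Its wild-type values were 33.4, 38.8 and 34.4 FPKM with LPS against 19.7, 14.3 and 16.3 FPKM with PBS. Its libraries were tightly grouped, with a difference of 0.71 ± 0.12 in the knockout (adjusted p = 0.000553) and 1.05 ± 0.12 in wild type (adjusted p = 2.78e-05).

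Mrps5 (chromosome 2, 127587222 to 127606829, plus strand), a small-subunit protein on the side where the message enters, had 25.5, 28.1 and 20.6 FPKM in knockout LPS against 15.9, 16.7 and 14.4 FPKM in knockout PBS libraries. It had 23.4, 28.0 and 25.6 FPKM in wild-type LPS against 14.6, 11.2 and 12.0 FPKM in wild-type PBS libraries. The treatments again did not overlap, and the difference was 0.62 ± 0.13 in the knockout and 0.98 ± 0.13 in wild type. Mrpl15, Mrpl19 and Mrpl54, all of the large subunit, rose by 0.81 ± 0.12, 0.78 ± 0.14 and 0.51 ± 0.16 in the knockout and by 0.90 ± 0.12, 0.85 ± 0.14 and 0.85 ± 0.16 in wild type. The knockout call of Mrpl54 was lost without knockout PBS replicate 2, knockout LPS replicate 1, knockout LPS replicate 2 or the 2 erythroid-rich libraries (highest adjusted p over the alternatives 0.0689). Mrps18b, one of the 3 mitochondrial relatives of bacterial protein S18 together with Mrps18a and Mrps18c, rose by 0.87 ± 0.15 in wild type (adjusted p = 0.000379), while its difference in the knockout was 0.31 ± 0.15 (adjusted p = 0.0957).

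In the knockout the largest rise was that of Mrps6 (chromosome 16, 92058270 to 92112227, plus strand), a small-subunit protein with a bacterial homologue. Mrps6 had 23.6, 32.8 and 23.5 FPKM in knockout LPS against 12.2, 10.8 and 9.92 FPKM in knockout PBS libraries. Its wild-type values were 15.9, 23.7 and 22.2 FPKM with LPS against 13.1, 14.8 and 8.83 FPKM with PBS. The treatments did not overlap, and the difference was 1.19 ± 0.20 in the knockout (adjusted p = 0.000554) and 0.71 ± 0.20 in wild type (adjusted p = 0.00905, but 0.0505 without the 2 erythroid-rich libraries). The exons of Mrps6 share bases on the same strand with Slc5a3, a myo-inositol transporter gene listed at 0.402 to 1.05 FPKM over the 12 libraries and left out by the filter.

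Mrpl45 (chromosome 11, 97315716 to 97329920, plus strand), which lies near the exit tunnel and ties the ribosome to the inner membrane, had 16.3, 13.4 and 13.5 FPKM in knockout LPS against 6.99, 7.58 and 8.15 FPKM in knockout PBS libraries. Its values in wild type were 13.3, 14.0 and 13.3 FPKM with LPS against 7.44, 7.36 and 6.77 FPKM with PBS. It rose to nearly the same extent in both genotypes, by 0.84 ± 0.09 in the knockout (adjusted p = 3.73e-05) and by 0.83 ± 0.09 in wild type (adjusted p = 3.05e-05). Mrpl30, a large-subunit protein with a bacterial homologue, rose by 0.86 ± 0.14 in the knockout and by 0.76 ± 0.14 in wild type. Among the highest genes, Mrpl52 rose by 0.41 ± 0.14 in the knockout and 0.58 ± 0.14 in wild type, and Mrpl36 by 0.37 ± 0.12 and 0.38 ± 0.12. In the knockout the call of Mrpl52 was lost when replicate 1 or 3 of PBS, or 1 or 2 of LPS, was left out, and that of Mrpl36 when replicate 2 or 3 of PBS, or 1 or 2 of LPS, was (highest adjusted p over the alternatives 0.1 and 0.0927); both were also lost without the 2 erythroid-rich libraries. The wild-type call of Mrpl36 was lost without wild-type PBS replicate 2, wild-type LPS replicate 2 or 3 or the 2 erythroid-rich libraries, and in a fit of the compared groups alone (highest adjusted p 0.105).

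Mrpl33 (chromosome 5, 31596935 to 31664384, plus strand), a very small large-subunit protein with a bacterial homologue, went against most of the family. It had 48.6, 52.9 and 54.8 FPKM in knockout LPS against 82.3, 80.7 and 74.8 FPKM in knockout PBS libraries. Wild-type libraries had 43.6, 54.1 and 43.4 FPKM with LPS against 85.0, 77.5 and 89.8 FPKM with PBS. All LPS libraries were below all PBS libraries, and the difference was -0.60 ± 0.11 in the knockout (adjusted p = 0.00113) and -0.83 ± 0.11 in wild type (adjusted p = 8.96e-05). Mrps25 (chromosome 6, 92169525 to 92184033, minus strand), a small-subunit protein without a bacterial homologue and the lowest of the 77 genes, had 1.64, 1.85 and 1.96 FPKM in knockout LPS against 2.85, 3.57 and 2.75 FPKM in knockout PBS libraries. It had 1.28, 1.74 and 1.45 FPKM in wild-type LPS against 2.86, 3.06 and 3.46 FPKM in wild-type PBS libraries. Its LPS libraries too were all below its PBS libraries, with a difference of -0.52 ± 0.11 in the knockout and -0.73 ± 0.11 in wild type, on a scale that the added 1 FPKM compresses at this level.

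Mrps16, a small-subunit protein whose human counterpart is mutated in a mitochondrial disease, had 36.8, 33.1 and 28.7 FPKM in knockout LPS against 40.8, 49.2 and 40.0 FPKM in knockout PBS libraries. Wild-type libraries had 27.8, 37.2 and 30.0 FPKM with LPS against 43.2, 42.7 and 45.4 FPKM with PBS. It fell by 0.39 ± 0.13 in the knockout (adjusted p = 0.0274) and by 0.46 ± 0.13 in wild type (adjusted p = 0.00979), but neither call held with median-of-ratios scaling (adjusted p = 0.194 and 0.0663). Nor did the knockout call hold without knockout PBS replicate 2, knockout LPS replicate 2 or knockout LPS replicate 3 (adjusted p = 0.112, 0.0578 and 0.0973). Mrpl34, another very small large-subunit protein, and Mrpl24, a large-subunit protein with a bacterial homologue at the exit of the tunnel, fell in wild type by 0.69 ± 0.16 and 0.46 ± 0.11 (adjusted p = 0.00322 and 0.00353). Their differences in the knockout were -0.39 ± 0.16 and -0.08 ± 0.11 (adjusted p = 0.0607 and 0.547).

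**Figure D3:**
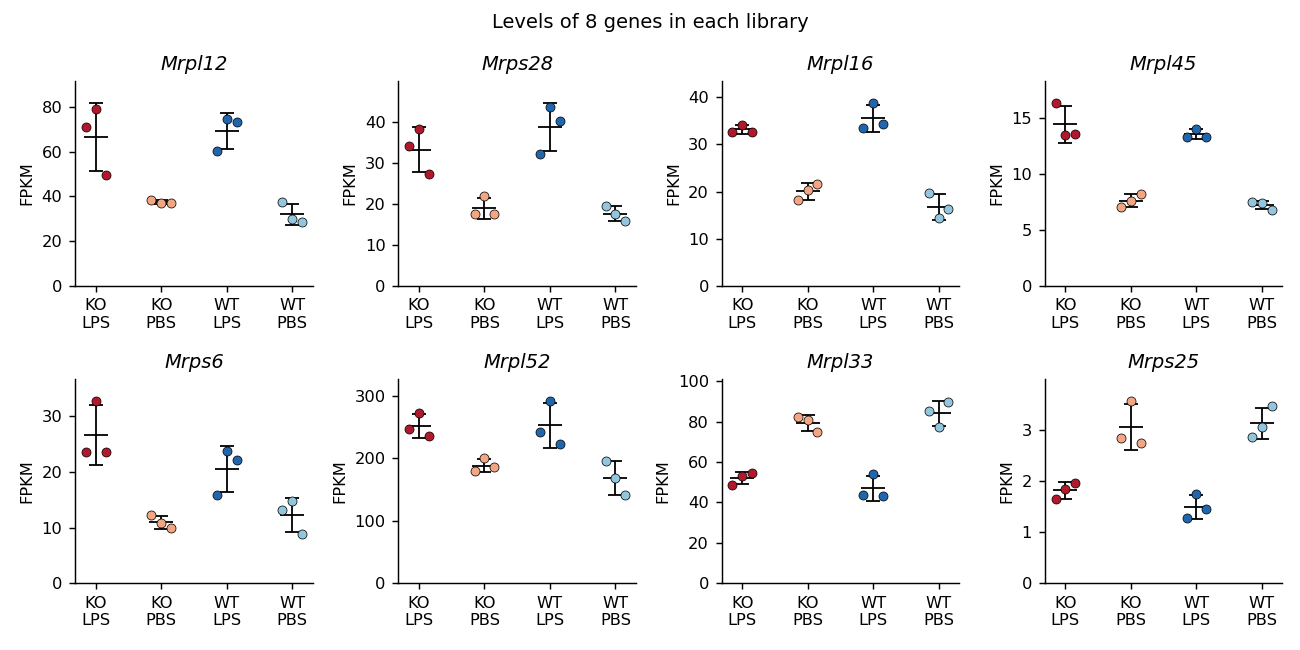
FPKM of 8 genes in each of the 12 libraries, with the group mean ± SD (n = 3). Mrpl12, Mrps28, Mrpl16, Mrpl45, Mrps6 and Mrpl52 are higher in every LPS library than in any PBS library, and Mrpl33 and Mrps25 are lower, in both genotypes.

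The promoters of these genes are shown because a set of binding sites is known to be common to nuclear genes for mitochondrial proteins: sites of the ETS family factor GABP, of NRF1 and of YY1. RefSeq promoter sequences of GRCm38.p6, from 250 bases before to 50 bases after the annotated start, were available for 68 of the 77 genes. They were searched on both strands for CCGGAAG (ETS), GCGCATGC (the core of the NRF1 site), AAGATGGC (YY1) and CACGTG (the E-box, which Myc and its relatives bind), and no match to one motif overlapped a match to another in these 68. The sequences below run from 80 bases before to 20 bases after the start, 5′ to 3′ on the strand of the gene, with matches in capitals.

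A first set are genes that rose in both genotypes and hold ETS letters near the start, namely Mrpl3 (chr9:105053188-105053287, plus strand), Mrpl22 (chr11:58171584-58171683, plus strand, which also holds the NRF1 core) and the most abundant gene, Mrpl52 (chr14:54426829-54426928, plus strand, with matches on the opposite strand).
Mrpl3: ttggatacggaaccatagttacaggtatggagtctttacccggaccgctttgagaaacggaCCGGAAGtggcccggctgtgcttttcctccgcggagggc
Mrpl22: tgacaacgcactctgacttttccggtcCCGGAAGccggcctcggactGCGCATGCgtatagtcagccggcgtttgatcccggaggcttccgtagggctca
Mrpl52: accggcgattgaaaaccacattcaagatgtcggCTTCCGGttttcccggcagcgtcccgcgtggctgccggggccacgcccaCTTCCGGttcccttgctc

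A second set are Mrpl12 (chr11:120484557-120484656, plus strand) and Mrpl16 (chr19:11770335-11770434, plus strand), which were among the largest rises and hold none of the 4 motifs in this window.
Mrpl12: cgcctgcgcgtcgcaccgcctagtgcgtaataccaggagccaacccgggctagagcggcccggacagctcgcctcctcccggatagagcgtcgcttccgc
Mrpl16: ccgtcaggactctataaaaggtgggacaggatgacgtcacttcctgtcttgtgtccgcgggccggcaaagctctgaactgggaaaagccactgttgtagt

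The last set are Mrpl33 (chr5:31613871-31613970, plus strand), which fell in both genotypes and holds both the NRF1 core and the ETS letters, and Mrpl34 (chr8:71464846-71464945, plus strand), which fell in wild type and holds the ETS letters.
Mrpl33: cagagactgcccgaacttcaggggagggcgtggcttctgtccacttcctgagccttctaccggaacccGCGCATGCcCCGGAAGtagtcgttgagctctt
Mrpl34: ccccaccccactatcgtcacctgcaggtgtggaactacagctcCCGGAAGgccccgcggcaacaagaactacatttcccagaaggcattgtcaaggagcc

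ETS letters stood in a promoter of 25 of the 68 genes (36.8%). They stood in a promoter of 22.3% of 7730 tested genes and of 9.93% of all 27025 genes with a promoter sequence. YY1 letters stood in 12 (17.6%), against 5.96% of tested genes and 3.19% of all. The NRF1 core stood in 8 (11.8%), against 6.56% and 3.05%, and the E-box in 5 (7.35%), against 12.3% and 8.09%. In all, 37 of the 68 genes held at least 1 of the first 3 motifs. Of the 29 ETS matches, 24 began within 60 bases of the start, and 8 of the 12 YY1 matches began 12 to 37 bases after it.

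Genes rose with LPS both with and without these letters. Of all genes tested 19.9% were higher and 33.3% lower in the knockout, and 24.8% were higher and 37.4% lower in wild type. Of the 25 genes with ETS letters, 11 were higher and 2 lower with LPS in the knockout, with a median difference of 0.23, and 11 were higher and 3 lower in wild type, with a median of 0.18. Of the 43 without, 21 were higher and 1 lower in the knockout (median 0.36) and 25 higher and 2 lower in wild type (median 0.35). Of the 12 genes with YY1 letters, 8 were higher and none lower in the knockout (median 0.37) and 7 higher and none lower in wild type (median 0.36). Of the 56 without, 24 were higher and 3 lower in the knockout (median 0.26) and 29 higher and 5 lower in wild type (median 0.28). Of the 8 genes with the NRF1 core, 3 were higher and 1 lower in the knockout (median 0.29). In wild type 5 were higher and 1 lower (median 0.38). The 60 without had 29 higher and 2 lower in the knockout (median 0.32), and 31 and 4 in wild type (median 0.3). Of the 5 genes with the E-box, 4 were higher and none lower in the knockout (median 0.37) and in wild type (median 0.52). The 63 without had 28 higher and 3 lower in the knockout (median 0.27), and 32 and 5 in wild type (median 0.27). These are counts of letters in a fixed window, not of bound factors.

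**Figure D4:**
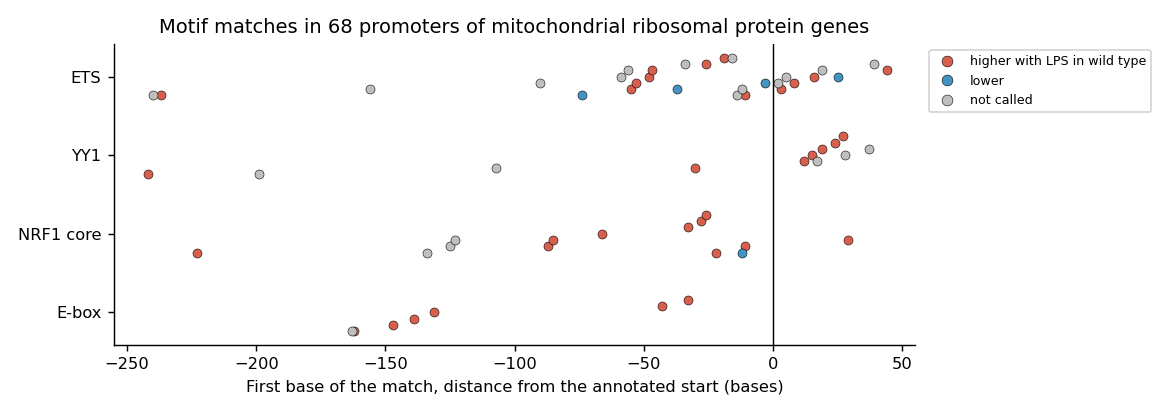
Positions of motif matches relative to the annotated start in the promoters of 68 genes, 1 row per motif, coloured by the call for LPS against PBS in wild type. The horizontal axis is in bases, with points shifted vertically for legibility and a match counted from each annotated start of a gene that has several. ETS matches gather around the start and YY1 matches just after it, and both higher and uncalled genes hold them.

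Genes of both subunits rose, but the share differed between classes. Of all genes tested 19.9% were higher in the knockout and 24.8% in wild type. Of the 30 large-subunit proteins with a bacterial homologue, 18 were higher and 1 lower in the knockout (median 0.39) and 21 were higher and 3 lower in wild type (median 0.46). Classes follow the uniform nomenclature of ribosomal proteins, in which Mrps18a and Mrps18b, although related to bacterial S18, have places of their own and count as particular to mitochondria. Of the 20 large-subunit proteins so counted, which include Mrps30 and Mrps18a despite their symbols, 10 were higher in the knockout (median 0.35), 9 in wild type (median 0.31), and none was lower. Mrps30 rose by 0.59 ± 0.12 in the knockout and 0.66 ± 0.12 in wild type.

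By symbol, the 48 Mrpl genes had medians of 0.38 in the knockout and 0.40 in wild type, and the 29 Mrps genes medians of 0.19 and 0.27. Of the Mrpl genes 56.2% were higher in the knockout and 58.3% in wild type, and of the Mrps genes 34.5% and 51.7%. Of the 16 small-subunit proteins with a bacterial homologue, 7 were higher and 1 lower in the knockout (median 0.20) and 6 were higher and 1 lower in wild type (median 0.21). Mrps9 rose by 0.64 ± 0.13 in the knockout and 0.63 ± 0.13 in wild type. Of the 10 small-subunit proteins particular to mitochondria, 2 were higher and 1 lower in the knockout (median 0.18), near the 19.9% higher among all genes tested. In wild type 7 of them were higher and 1 lower (median 0.33). The remaining gene, Mrps36, is now known to encode a subunit of the 2-oxoglutarate dehydrogenase complex rather than of the ribosome, and its difference was 0.10 ± 0.12 in the knockout (adjusted p = 0.499) and 0.02 ± 0.12 in wild type (adjusted p = 0.909). No test compared the classes, and the few genes named in this account of them were picked after their values were seen.

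The loss of lactoferrin is the question the series asks. Across the 77 genes the LPS differences of the knockout and of wild type went together, with a Pearson correlation of 0.84 and a Spearman correlation of 0.82, beside 0.91 and 0.91 over all genes tested; the 2 comparisons share no library, and the correlations are descriptions over genes. The counts that follow were not made over all genes tested, so they are not shown to be particular to these genes. There were 32 genes higher in both genotypes, 3 lower in both (Mrpl33, Mrps25 and Mrps16), 24 called in neither and none called in opposite directions. A further 11 were called higher in wild type only and 5 in the knockout only, these 5 being Mrpl41, Mrpl53, Mrpl57, Mrps12 and Mrps24, named after their values were seen because they are few. The call was lost without knockout PBS replicate 3 for Mrpl41 and Mrps12 (adjusted p = 0.0532 and 0.0587), without knockout LPS replicate 2 for Mrpl57 (adjusted p = 0.0521), and for Mrpl53 without replicate 2 or 3 of either treatment and with no filter (highest adjusted p 0.111).

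A call in 1 genotype alone does not show that the genotypes differ, and the test of that difference, the LPS response of the knockout minus that of wild type, passed for none of the 77 genes by limma, while 4 had an unadjusted p under 0.05. Of all genes tested, 0.0406% passed it and 9.61% had an unadjusted p under 0.05. The smallest p was that of Mrpl53, a large-subunit protein without a bacterial homologue. Mrpl53 had 10.8, 14.4 and 13.5 FPKM in knockout LPS against 10.1, 7.98 and 9.35 FPKM in knockout PBS libraries, and 7.30, 11.6 and 10.2 FPKM in wild-type LPS against 10.7, 12.1 and 11.1 FPKM in wild-type PBS libraries. The LPS libraries were the higher ones in the knockout, while in wild type the treatments overlapped. The difference between the responses was 0.67 ± 0.22 (adjusted p = 0.417 from limma). For Mrpl3 it was -0.37 ± 0.13 (adjusted p = 0.453) and for Mrps18b -0.56 ± 0.21 (adjusted p = 0.453).

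Within a treatment the genotypes were not told apart either. Under PBS none of the 77 genes passed the test of knockout against wild type by limma and 3 had an unadjusted p under 0.05, where 0.112% of all genes tested passed and 9.11% had such a p. The smallest p was that of Mrpl3, a large-subunit protein with a bacterial homologue, at 29.8, 29.8 and 29.9 FPKM in knockout PBS against 25.9, 24.2 and 23.7 FPKM in wild-type PBS libraries. These groups did not overlap, and the difference was 0.27 ± 0.09 (adjusted p = 0.436). For Mrps5 and Mrps18b it was 0.30 ± 0.13 (adjusted p = 0.535) and 0.33 ± 0.15 (adjusted p = 0.540). The 3 knockout PBS libraries were above the 3 wild-type PBS libraries for 8 of the 77 genes and below them for 5, beside 6.04% and 7.34% of all genes tested. Sums of the T cell markers, at 16.2 to 22.3 FPKM in knockout PBS and 33.3 to 46.4 FPKM in wild-type PBS libraries, did not overlap. None of the 7 tested T cell markers passed the test. Of the 4 tested natural killer cell markers, 1 was called lower in the knockout (adjusted p = 0.0479 from limma). Sums of the 7 natural killer cell markers overlapped, at 7.88 to 15.7 FPKM in knockout PBS and 12.7 to 33.4 FPKM in wild-type PBS libraries.

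Under LPS none of the 77 genes passed by limma and 2 had an unadjusted p under 0.05, where 0% of all genes tested passed and 7.56% had such a p. Mrpl53 was at 10.8 to 14.4 FPKM in knockout LPS and at 7.30 to 11.6 FPKM in wild-type LPS libraries, with a difference of 0.39 ± 0.16 (adjusted p = 0.651). Mrpl24 differed by 0.26 ± 0.11 (adjusted p = 0.655) and Mrps18c by -0.23 ± 0.11 (adjusted p = 0.670), and the ranges of the knockout and wild-type LPS libraries separated for 1 gene in each direction, beside 5.03% and 10.4% of all genes. The neutrophil markers, at 725 to 2714 FPKM in knockout LPS and 156 to 284 FPKM in wild-type LPS libraries, had ranges that did not overlap, although none of the 10 passed the test. Mast cell marker sums, at 519 to 593 and 726 to 742 FPKM, did not overlap either, and none of the 6 tested passed.

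Other genes of the mitochondrial translation pathway moved to different extents. Mitoribosomal proteins that carry other symbols rose in part: Ptcd3 and Chchd1 of 4 small-subunit genes and Gadd45gip1 of 2 large-subunit genes were higher in both genotypes. The knockout call of Chchd1 was lost when replicate 3 of PBS, or replicate 1 or 2 of LPS, was left out, and the wild-type call without LPS replicate 2 or 3 or the 2 erythroid-rich libraries (highest adjusted p 0.0644 in the knockout and 0.114 in wild type). Gadd45gip1 rose by 0.70 ± 0.18 in the knockout and 0.72 ± 0.18 in wild type, and Ptcd3 by 0.52 ± 0.12 and 0.60 ± 0.12. Of 16 factors of mitochondrial translation and mRNA handling, 5 (31.2%) were higher and 1 lower in the knockout and 4 (25%) were higher and 2 lower in wild type, where 19.9% and 24.8% of all genes tested were higher. Slirp, which with Lrpprc stabilises mitochondrial mRNAs, rose by 0.65 ± 0.13 in the knockout and 0.76 ± 0.13 in wild type. The release factor gene Mtrf1 fell by 0.57 ± 0.16 and 0.53 ± 0.16, calls that were lost without knockout PBS replicate 1 (adjusted p = 0.0505) and without wild-type LPS replicate 3 (adjusted p = 0.0552). The elongation factor gene Tufm rose by 0.52 ± 0.17 in the knockout, a call that did not hold when replicate 3 of knockout PBS, or replicate 2 or 3 of knockout LPS, was left out (highest adjusted p 0.0748), and its difference in wild type was 0.35 ± 0.17 (adjusted p = 0.0847).

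Of 24 genes of mitoribosome assembly and rRNA modification, 6 (25%) were higher and 3 (12.5%) lower in the knockout. In wild type 7 (29.2%) were higher and 4 (16.7%) lower. The higher shares were near the 19.9% and 24.8% of all genes tested. The lower shares were under the 33.3% and 37.4% of all genes tested. Noa1, a GTPase needed for the small subunit, rose by 0.95 ± 0.15 in the knockout and 0.80 ± 0.15 in wild type. Of 20 mitochondrial tRNA synthetase genes, 2 (10%) were higher and 3 lower in the knockout and 7 (35%) were higher and 4 lower in wild type. Yars2, the tyrosine enzyme, rose by 0.80 ± 0.15 in the knockout and 0.77 ± 0.15 in wild type.

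Of 21 genes of mitochondrial transcription and RNA processing, 11 (52.4%) were higher and none lower in the knockout. In wild type 12 (57.1%) were higher and 1 lower. The mitochondrial ribosomal protein genes had 48.1% and 55.8% higher, and all genes tested 19.9% and 24.8%. Pnpt1 and Supv3l1, which together degrade mitochondrial RNA, rose by 0.87 ± 0.14 and 0.75 ± 0.13 in the knockout and by 1.27 ± 0.14 and 1.11 ± 0.13 in wild type. Peo1, the helicase of mitochondrial DNA, rose by 0.91 ± 0.17 in the knockout and 0.80 ± 0.17 in wild type. Among 10 tested regulators of mitochondrial biogenesis, 4 (40%) were higher in the knockout and 6 (60%) in wild type, and none was lower. Myc, a growth regulator that binds E-boxes, had 141, 150 and 89.8 FPKM in knockout LPS against 42.0, 30.2 and 36.6 FPKM in knockout PBS libraries. It had 146, 152 and 166 FPKM in wild-type LPS against 65.5, 47.7 and 47.5 FPKM in wild-type PBS libraries, so the treatments were far apart in both genotypes, and Myc rose by 1.76 ± 0.20 in the knockout and 1.53 ± 0.20 in wild type. Pprc1, a coactivator of NRF1, rose by 0.81 ± 0.19 in wild type, and Gabpb1, a subunit of GABP, by 0.52 ± 0.12. Their knockout differences of 0.50 ± 0.19 and 0.33 ± 0.12 (adjusted p = 0.0414 and 0.0452) did not pass in 10 of the alternatives each.

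Neither respiratory chain subunits nor the cytosolic ribosome showed such a share of higher genes. Of all genes tested 19.9% were higher and 33.3% lower in the knockout, and 24.8% were higher and 37.4% lower in wild type. Lower shares were below these in both lists. They were 6.49% in the knockout and 13% in wild type for respiratory chain subunits, and 0% and 1.22% for the cytosolic ribosome. Of 77 tested nuclear genes for oxidative phosphorylation, 8 were higher and 5 lower in the knockout and 10 were higher and 10 lower in wild type, with medians of -0.04 and 0.01. Ndufs3 of complex I rose by 0.49 ± 0.11 in the knockout and 0.70 ± 0.11 in wild type. Cox7a2l, a factor of respiratory supercomplexes, fell by 0.98 ± 0.23 in wild type. It was also called lower in the knockout (adjusted p = 0.0277 from limma), a call lost in 6 of the alternatives. Of 82 tested cytosolic ribosomal protein genes, 4 were higher and none lower in the knockout and 6 were higher and 1 lower in wild type, with medians of 0.16 and 0.14. Rpl24 rose by 0.54 ± 0.14 in the knockout and 0.51 ± 0.14 in wild type. These shares were set side by side without a test between lists.

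**Figure D5:**
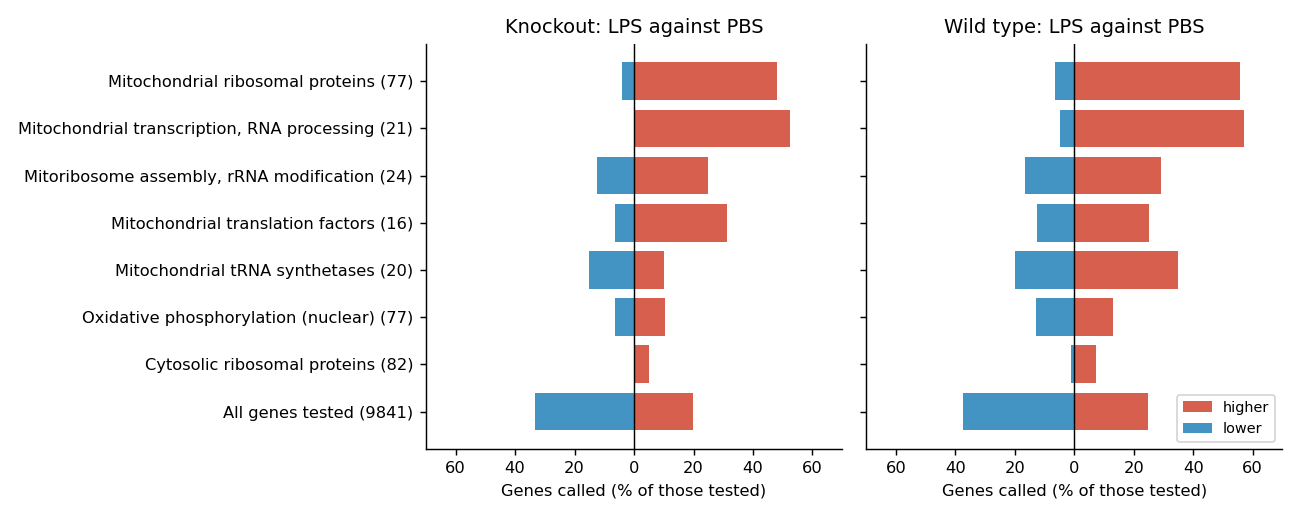
Share of the tested genes of each list that were called higher (to the right) and lower (to the left) with LPS, in the knockout (left panel) and in wild type (right panel), with the number tested in brackets. The mitochondrial ribosomal proteins reach 48.1% and 55.8% higher, against 19.9% and 24.8% of all genes tested, while cytosolic ribosomal proteins reach 4.88% and 7.32%. Genes of mitochondrial transcription and RNA processing reach 52.4% and 57.1%.

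In the genome the 77 genes were scattered, on 17 chromosomes, with most on chromosomes 11 (10 genes), 17 (8) and 6 (7). For 18 of them (23.4%) an opposite-strand protein-coding gene started within the 1000 bases before their own start, as for 10.9% of 9506 tested protein-coding genes. Of these partners 14 were tested, of which 4 were higher and 3 lower with LPS in the knockout and 5 were higher and 5 lower in wild type. Mrpl30 and its partner Mitd1, with starts 66 bases apart, rose together, Mitd1 by 0.81 ± 0.19 in the knockout and 0.79 ± 0.19 in wild type. Mrpl32 and the proteasome gene Psma2, 75 bases apart, also rose together, Psma2 by 0.42 ± 0.11 and 0.56 ± 0.11. In contrast Mrpl2 rose by 0.57 ± 0.13 in the knockout and 0.66 ± 0.13 in wild type, while its partner Klc4, a kinesin light chain gene 207 bases away, fell by 0.82 ± 0.20 and 1.22 ± 0.20. These pairs were picked after their values were seen. Exons of 32 of the 77 genes overlap those of another annotated gene, and whether the authors' counting used strand is not given, so the reads of such neighbours may not be fully apart. The overlapping pair Mrpl46 and Mrps11, on opposite strands, had differences of 0.39 ± 0.13 (a call lost in 6 of the alternatives) and 0.17 ± 0.18 in the knockout and 0.66 ± 0.13 and 0.11 ± 0.18 in wild type.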

How the data were processed

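Total RNA of peritoneal lavage cells was sequenced in 12 libraries, 3 in each of 4 groups, which were assigned from GEO's labels. Knockout libraries are titled as wild type, but their codes, descriptions and characteristics name the lactoferrin knockout, which was followed. Per the submitters' processing notes TopHat, Cufflinks, HTSeq and DESeq were used with the build GRCm38, with no version given. The authors deposited 1 table of gene symbols and values per library, and the values were taken as FPKM, since they are not whole numbers and Cufflinks is among the tools. Of 21878 rows, 27 with symbols turned into dates were left out.

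A linear model with 4 group means and 8 residual degrees of freedom was fitted to log2(FPKM + 1) of all 12 libraries with limma 3.58.1 (trend and robust variances, statmod 1.5.0, R 4.3.3). It covered the 9841 genes whose mean was 1 FPKM or more. P-values are two-sided and were adjusted by the Benjamini-Hochberg method over all genes tested within a comparison, with a threshold of 0.05. No count model was used, and because FPKM carries no read number, the precision of low genes is unknown.

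Positions are from GENCODE M21 (GRCm38). Promoters are from RefSeq (GRCm38.p6). Tables and figures used Python 3.11.15, pandas 2.3.3 and matplotlib 3.10.9. The genes, the lists set beside them and the classes of protein were chosen with earlier results of these data known. Named were the 5 genes of highest mean level, up to 8 called in each direction with the largest LPS difference, the 3 of smallest p in each genotype comparison and, from other lists, up to 3 called with the largest difference; others are said to be picked later. From the other lists a few further called genes, such as Ndufs3, were named after their values were seen. Alternatives were another pseudocount, other filters, other scalings, other variance settings, a replicate block and leaving out libraries.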

Additional observations from a re-analysis of the deposited data

How the results depend on the processing

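Under the alternatives tried, no called LPS difference of the 77 genes, or of the genes of the other lists, changed sign. Apart from the following, the counts of genes called with LPS stayed within 1.5 times those reported. In wild type 28 were higher without the 2 libraries rich in erythroid mRNA, an alternative chosen after seeing the data. In the knockout 5 were lower, both when only the libraries of the groups compared were fitted and without wild-type LPS replicate 2. All of these fits used fewer than the 12 libraries, and the cause was not tested. Median-of-ratios scaling moved the median difference to 0.531 in the knockout and 0.518 in wild type, together with the median of all genes. Leaving out each library in turn gave 26 to 43 genes higher and 2 to 5 lower in the knockout (median 0.259 to 0.427) and 33 to 45 higher and 5 to 7 lower in wild type (median 0.304 to 0.387). In the same runs none of the 77 genes was called in either comparison of the genotypes or for the difference in response. In the knockout 13 higher calls and 1 lower call, and in wild type 15 higher calls and 1 lower call, were lost under at least 1 alternative, among them those named above for Mrps16, Mrpl36, Mrpl52, Mrpl54 and Mrps6. Of the 5 genes called higher in the knockout alone, Mrpl41, Mrpl53, Mrpl57 and Mrps12 lost the call in 1 to 5 alternatives. Among the called genes, Mrpl1, Mrpl41, Mrps10 and Mrps25 could not be tested with the filter of 5 FPKM.

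The replicate numbers were also used as a block. Deviations of libraries with the same number had correlations of -0.254 to 0.19, and those with different numbers of -0.291 to 0.383. With 3 libraries per group such values cannot tell whether the numbers pair the samples. With the replicate block 38 genes were higher and 3 lower in the knockout (median 0.362) and 42 higher and 5 lower in wild type (median 0.344), and 0 were called between the genotypes.

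FPKM gives no depth, so fold changes of low genes such as Mrps25 cannot be given a counting error.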
